A study of Mus musculus with 8 samples.

Results

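The measurements described here are those of the RefSeq non-coding transcripts in mouse liver: every non-control probe whose accession starts with NR_ (curated non-coding RNA) or XR_ (predicted non-coding RNA). There were 1911 such probes, 1426 NR_ and 485 XR_, among 55681 non-control probes of the array, and they carried 1744 accessions and 1722 gene names. The comparison set was the 26640 probes of curated mRNAs (NM_). Total RNA came from the liver of 12-week-old bl6 mice on a chow diet, taken on day 6 after transduction with an adenoviral vector, and was labelled with Cy3 and hybridised to 8 single-colour Agilent arrays with probes of 60 bases. The 4 control arrays came from mice given pblockITcontrol, and the 4 shRaly arrays from mice given pblockITshRaly, a vector for a short hairpin RNA against Raly. The labels give the virus dose as 2e+09 without a unit, and name no promoter for the hairpin and no cell type that took up the virus. The titles number the samples but do not say whether each is its own mouse, and the p-values cover only the spread among these 8 arrays. All 8 lay on 1 slide, with the controls in row 1 and shRaly in row 2, and an effect of the row cannot be told apart from one of the group.

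Non-coding transcripts are a mixed set. Long non-coding RNAs act in the nucleus or the cytoplasm as scaffolds, decoys or guides for proteins, host genes carry small nucleolar RNAs or microRNAs in their introns, and transcribed pseudogenes are copies of coding genes that make RNA without the protein. Raly binds RNA and belongs to the heterogeneous nuclear ribonucleoproteins; it has been studied in liver as a protein partner of a long non-coding RNA in cholesterol synthesis. By gene name and RefSeq type, 1303 of the probes had a clone or predicted-gene name and no other class, 304 were pseudogenes, 93 were non-coding transcripts of coding genes, and 87 were named as opposite-strand or antisense transcripts. A further 16 belonged to small nucleolar RNA hosts, 8 to small RNAs or RNA components of ribonucleoproteins and 7 to microRNA hosts, and 93 were other named transcripts such as Malat1 and H19.

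The arrays themselves were alike apart from 1. Between 45.9% (shRaly 2) and 51.1% (control 4 and shRaly 1) of the non-control spots were well above background, and no spot was saturated. The Raly probe stood at 100%, 84.3%, 105% and 112% of the control mean in control 1 to 4 and at 51.8%, 80.9%, 58.3% and 62.7% in shRaly 1 to 4. Raly was therefore lower in every shRaly array than in any control array, by least in shRaly 2, with a log2 fold change of -0.68 (SE 0.15) and an adjusted p of 0.097 (limma, all probes tested), which did not pass 0.05. The 8 hepatocyte markers looked at were all tested, with mean normalised signals between 6.14 and 10.24 on the log2 scale. None of the 10 marker lists of liver, blood and pancreas cell types held a gene past the threshold, beside 0.698% of all probes tested. The lists had 2 (exocrine pancreas) to 8 (hepatocyte) tested genes, so 0 calls does not show that the cell make-up was alike. Their median log2 fold changes lay between -0.25 (B cell) and 0.40 (neutrophil). The array medians of the neutrophil list ran from -0.63 to 0.72.

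The probe sequences are given first for the transcripts on which the comparison of the groups turned, read from the array files, 5′ to 3′. The probe of 1700009J07Rik, a long non-coding RNA with a clone name, lay at chr10:77356686-77356745 on the plus strand of mm9 (NCBI37), and that of Gm5126 at chrX:100127386-100127443 on the minus strand. Both probes of 4932422M17Rik, a predicted miscellaneous RNA, are shown because they gave different results. Probe 1 lay at chr5:123591505-123591564 and probe 2 at chr5:123591489-123591548, both on the plus strand, and the capitals mark the 44 bases they have in common.
1700009J07Rik: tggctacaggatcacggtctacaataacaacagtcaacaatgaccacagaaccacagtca
Gm5126: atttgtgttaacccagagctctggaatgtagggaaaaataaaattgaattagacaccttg
4932422M17Rik probe 1: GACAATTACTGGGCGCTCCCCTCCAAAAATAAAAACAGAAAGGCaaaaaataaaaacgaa
4932422M17Rik probe 2: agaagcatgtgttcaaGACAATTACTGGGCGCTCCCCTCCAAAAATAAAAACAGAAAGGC

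A second set shows why the signal of a pseudogene probe has to be read beside that of its coding relative. In the probes below the capitals mark the longest stretch also present in a probe of the named coding gene: Gapdh (a glycolytic enzyme) for Gm5523 and Gm12070, Rpl22l1 (a ribosomal protein paralogue) for Gm15421, Isg15 (an interferon-induced ubiquitin-like protein) for Gm9706 and Ndc80 (a kinetochore protein) for 2700099C18Rik. On mm9 the probes lay at chr1:13775772-13775831 (minus strand), chr11:26687772-26687831 (plus), chr5:22034094-22034153 (minus), chr17:46543886-46543945 (minus) and, over a gap, chr17:95160893-95161809 (plus). The stretches are 27, 43, 54, 35 and 25 bases long.
Gm5523: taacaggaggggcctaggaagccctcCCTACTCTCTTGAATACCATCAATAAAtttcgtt
Gm12070: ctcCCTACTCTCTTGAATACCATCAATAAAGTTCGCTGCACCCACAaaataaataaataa
Gm15421: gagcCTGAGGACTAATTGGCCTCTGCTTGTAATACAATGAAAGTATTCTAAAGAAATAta
Gm9706: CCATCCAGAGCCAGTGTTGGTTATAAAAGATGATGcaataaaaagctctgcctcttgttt
2700099C18Rik: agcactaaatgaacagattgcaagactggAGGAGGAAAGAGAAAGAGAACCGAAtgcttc

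About 1 in 3 non-coding probes gave a signal in these livers. The share well above background, the scanner software's call of detection, was 34.5%, 33.6%, 33.3% and 35.7% in control 1 to 4 and 36.3%, 30.0%, 35.0% and 34.9% in shRaly 1 to 4. The mRNA probes on the same arrays stood at 65.6%, 63.9%, 64.4% and 65.9% in the controls and at 65.5%, 61.4%, 65.6% and 65.8% in the shRaly arrays. On each of the 8 arrays the non-coding share was thus far below the mRNA share, and both were lowest on shRaly 2, the array with the fewest detected spots. Control and shRaly arrays did not differ beyond the spread between arrays, with 34.3% ± 1.09 (SD, n = 4) against 34.0% ± 2.77 (SD, n = 4). NR_ and XR_ probes were detected about equally often, at 34.2% and 33.9% as the mean of the 8 arrays. On all 8 arrays 536 non-coding probes (28.0%) were well above background, against 59.7% of the mRNA probes, and 1065 (55.7%) were so on none, against 28.4%. The median GC content of the probes was 40.0% for the non-coding and 41.7% for the mRNA set.

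The detected share differed by kind of transcript. Averaged over the 8 arrays, it was 100% for the probes of small nucleolar RNA hosts and 90.6% for small RNAs and ribonucleoprotein RNAs. Pseudogenes (51.4%), non-coding transcripts of coding genes (50.5%), microRNA hosts (44.6%) and the other named transcripts (43.8%) came between. Transcripts with clone or predicted-gene names (27.6%) and opposite-strand transcripts (26.6%) were detected least often. Across arrays the share of the clone-named class ranged from 23.3% to 29.5% and that of pseudogenes from 48.7% to 53.3%, so those ranges stayed apart. The host and small RNA classes hold few probes. Xist, the RNA that coats the inactive X chromosome, had 2 probes, neither well above background on any array, and the 1 probe of Mexis, a transcript beside the cholesterol exporter gene Abca1, was never well above background either.

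**Figure D1:**
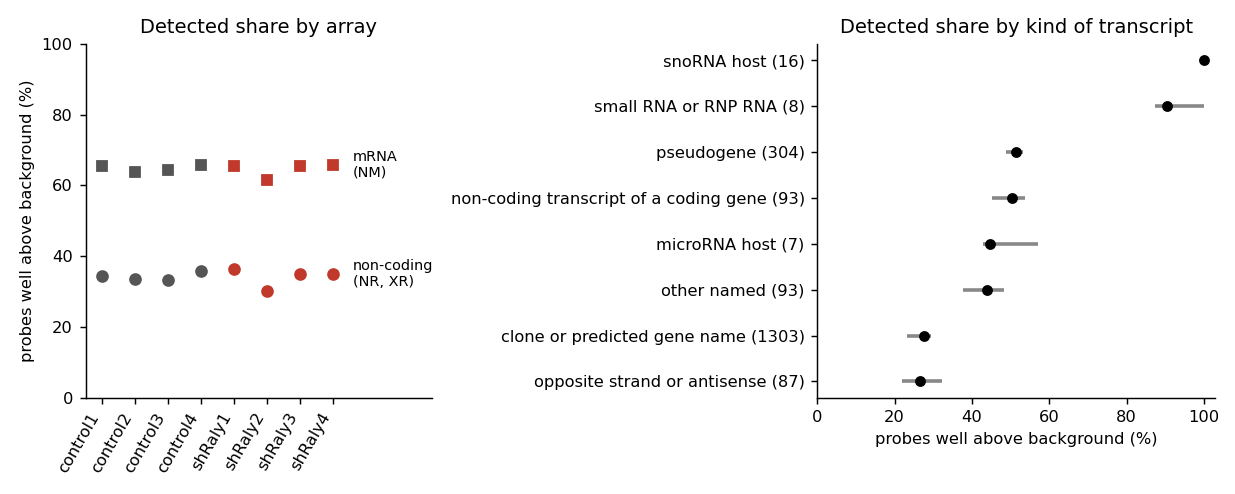
Left, percent of probes well above background on each of the 8 arrays, for mRNA probes (squares, 61.4% to 65.9%) and non-coding probes (circles, 30.0% to 36.3%), with controls in grey and shRaly in red. Right, the same percentage by kind of non-coding transcript (number of probes in brackets), with the mean of the 8 arrays as a point and the lowest to highest array as a line, from 26.6% for opposite-strand transcripts to 100% for small nucleolar RNA hosts.

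The 10 brightest non-coding probes were 2 of structural RNAs, 6 of pseudogenes and 2 with predicted-gene names, LOC101056141 and LOC100048345. In the units used here, log2 signal with each array's 75th percentile set to 0, the probe of the small-subunit ribosomal RNA Rn18s averaged 9.30 over the 8 arrays and that of the short cytoplasmic RNA Rn4.5s 9.12. Next came the Gapdh pseudogenes Gm5523 (9.10) and Gm12070 (8.90), LOC101056141 (8.89), LOC100048345 (8.79), Gm6548 (8.44), the histocompatibility pseudogene H2-K2 (8.27), the second Gm12070 probe (8.05) and Gm8580 (8.04). Signal also depends on the probe, so this order is one of probes and not of RNA amounts. Besides the Gapdh stretches given above, the LOC101056141 probe shared 26 bases with a probe of the coding gene Cox6a1. LOC100048345 shared 33 with Zcchc9, and Gm8580 shared 26 with Rpl29. Rn18s stood at 83.5%, 123%, 93.0% and 105% of the control mean in control 1 to 4 and at 106%, 123%, 94.8% and 119% in shRaly 1 to 4, so the groups overlapped. The log2 fold changes of these 10 probes, shRaly minus control, lay between -0.16 (Gm8580) and 0.25 (LOC100048345), and none passed the test.

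The test called 4 non-coding probes, all lower in shRaly, a share near that of the whole array, where 148 of the 188 calls were also lower. A probe that was not called is not shown to be unchanged. Of the 1911 probes, 647 (33.9%) entered the fit because 4 or more of the 8 arrays had them well above background, and 1264 did not. The fit covered 26934 probes of every kind and called 188 of them at an adjusted p under 0.05, which is 0.698%, with 0.549% lower and 0.149% higher in shRaly. Among the non-coding probes tested, 4 were lower and 0 were higher (0.618% in all), beside 121 of 17284 mRNA probes (0.7%, with 91 lower and 30 higher), so the share of calls was near that of the whole array. At an unadjusted p under 0.05 there were 95 non-coding probes (14.7%, with 63 lower and 32 higher) beside 14.8% of the mRNA probes, again a like share. The groups did not overlap for 49 non-coding probes (7.57%, with 39 lower and 10 higher), below the 9.52% of all probes tested. In liver as a whole organ, fewer cells of a type and less RNA per cell cannot be told apart.

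With the processing used here, the non-coding probes lay slightly lower in shRaly than the mRNA probes did. Their median log2 fold change was -0.06, with the middle 50% between -0.21 and 0.09, beside a median of -0.01 for mRNA and -0.03 for all probes tested, and 60.4% of them were below 0 against 52.1% of the mRNA probes. The array medians of the non-coding probes, relative to the control mean, were -0.03, 0.03, -0.01 and 0.00 in control 1 to 4 and 0.05, -0.07, -0.09 and -0.05 in shRaly 1 to 4. The shift was thus seen in 3 of the 4 shRaly arrays, while shRaly 1 lay above every control array. When all tested probes were split by mean signal into 4 bands of equal size, the dimmest band held 219 of the non-coding ones, and their median there was -0.09 against -0.01 for mRNA. In the brightest band, with 123, both medians were -0.02. With background corrected by normexp the median of the non-coding probes was 0.02, against 0.00 for mRNA. Without the filter on dim probes it was again above that of mRNA (0.05). Neither the sign of the non-coding median nor its place below that of mRNA is therefore settled. By kind, the median was -0.09 for clone-named transcripts (358 tested), -0.03 for pseudogenes (155), -0.08 for opposite-strand transcripts (22) and 0.13 for the other named transcripts (40).

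**Figure D2:**
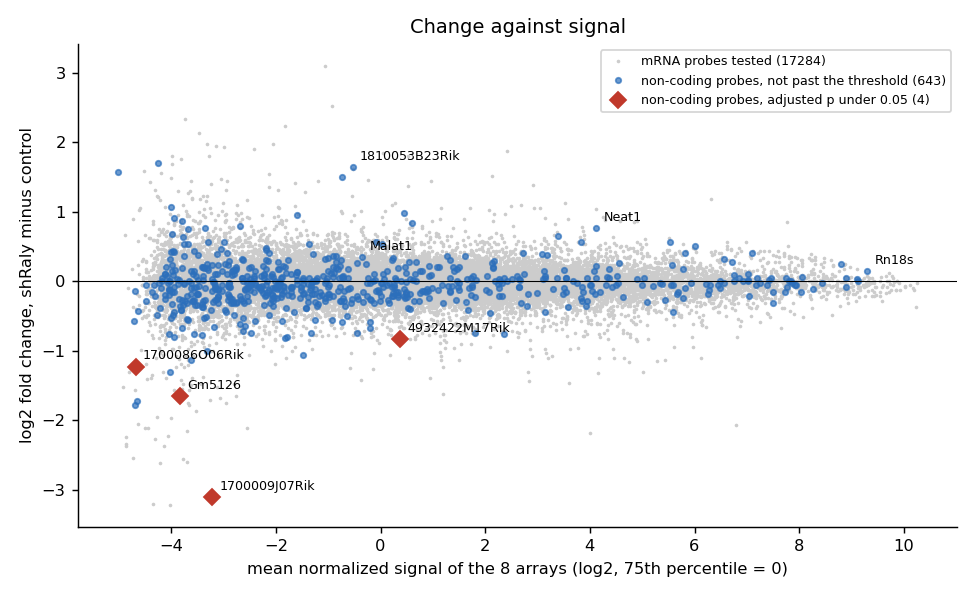
Log2 fold change (shRaly minus control) against the mean normalised log2 signal of the 8 arrays, for 17284 mRNA probes (grey), 643 non-coding probes that did not pass the threshold (blue) and the 4 that did (red diamonds). The 4 lie below 0, at -0.83 to -3.11, and 3 of them at mean signals below -3.

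The transcript with the steepest fall was 1700009J07Rik. Its signal was 86.6%, 76.9%, 142% and 106% of the control mean in control 1 to 4 and 12.4%, 11.9%, 12.9% and 9.52% in shRaly 1 to 4. All 4 control arrays had the probe well above background and no shRaly array did, and the groups did not overlap. The probe entered the fit through the control arrays alone, the group where it was high, so its test was open to a fall and not to a rise. Its log2 fold change was -3.11 (SE 0.19, 95% interval -3.55 to -2.67, adjusted p 0.00224 in limma). Because the shRaly signal was not well above background, the fall is given as at least 6.48-fold, a bound set against the dimmest detected probes of those arrays. The call held in each alternative in which the probe was tested, with adjusted p values up to 0.0277, and in all 8 fits that left out 1 array. Without the filter, which leaves detection out of the choice of probes, the adjusted p was 0.0154. Under normexp, another background correction, with an offset of 50 on every spot that weighs most on dim probes, the log2 fold change was -0.83. By gene order in RefSeq this transcript lies between Tspear, which was not tested, and Lrrc3, whose log2 fold change was -0.22 (SE 0.11, adjusted p 0.413).

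4932422M17Rik was the one called transcript detected on all 8 arrays, and its 2 probes went apart. Probe 1 stood at 103%, 99.8%, 98.2% and 99.5% of the control mean in control 1 to 4 and at 45.4%, 60.4%, 52.3% and 70.4% in shRaly 1 to 4, a log2 fold change of -0.83 (SE 0.14, adjusted p 0.0394 in limma). The controls were nearly level and every shRaly array lay below them. Probe 2, which begins 16 bases upstream and has 44 bases in common with probe 1, stood at 76.2%, 108%, 112% and 108% in the controls and at 103%, 107%, 79.7% and 99.8% in shRaly, a log2 fold change of -0.05 (SE 0.15, 95% interval -0.40 to 0.30, adjusted p 0.925). Within an array, the log2 signal of probe 1 minus that of probe 2 averaged 0.49 ± 0.29 (SD, n = 4) in the controls and -0.29 ± 0.30 (SD, n = 4) in shRaly. That difference between the groups, -0.78, had an exact two-sided permutation p of 0.0286, the smallest that 4 against 4 arrays can give, and it was looked at after its values were seen. The fall of this transcript therefore rests on 1 of its 2 probes, and its call held in 1 of the 8 fits that left out an array, that without shRaly 1. Under median scaling its adjusted p was 0.0636.

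The other 2 calls were dim probes near background. Gm5126 stood at 183%, 94.2%, 71.7% and 81.0% of the control mean in control 1 to 4 and at 23.4%, 34.1%, 39.1% and 32.6% in shRaly 1 to 4. It was well above background on 4 control arrays and 1 shRaly array, and control 1 lay apart from the other controls. The control arrays, the group where it was high, met the filter's minimum by themselves. The test of Gm5126 was thus more open to a fall than to a rise. Its log2 fold change was -1.65 (SE 0.29, adjusted p 0.0471 in limma), it was -0.28 (adjusted p 0.503) under normexp, and the call was lost in each of the 8 fits that left out an array, with -1.36 (adjusted p 0.0684) without control 1. 1700086O06Rik, a long non-coding RNA that overlaps Dele1 in RefSeq, stood at 103%, 112%, 90.6% and 95.8% in the controls and at 48.5%, 41.1%, 55.9% and 29.9% in shRaly. It was well above background on every control array and no shRaly array, and so it too entered the fit through the controls alone. Its log2 fold change was -1.23 (SE 0.19, adjusted p 0.0292 in limma), which as a bound is at least 1.23-fold lower, and under normexp it was -0.06 (adjusted p 0.90). Its call held without shRaly 1 and without shRaly 3 and was lost without any other array. Without the filter on dim probes the calls of 4932422M17Rik probe 1, Gm5126 and 1700086O06Rik were all lost, with adjusted p values of 0.142, 0.14 and 0.106. The tested coding neighbours of 1700086O06Rik, none past the threshold, were Dele1 (0.06), Pcdh1 (-0.22) and Pcdh12 (-0.20).

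**Figure D3:**
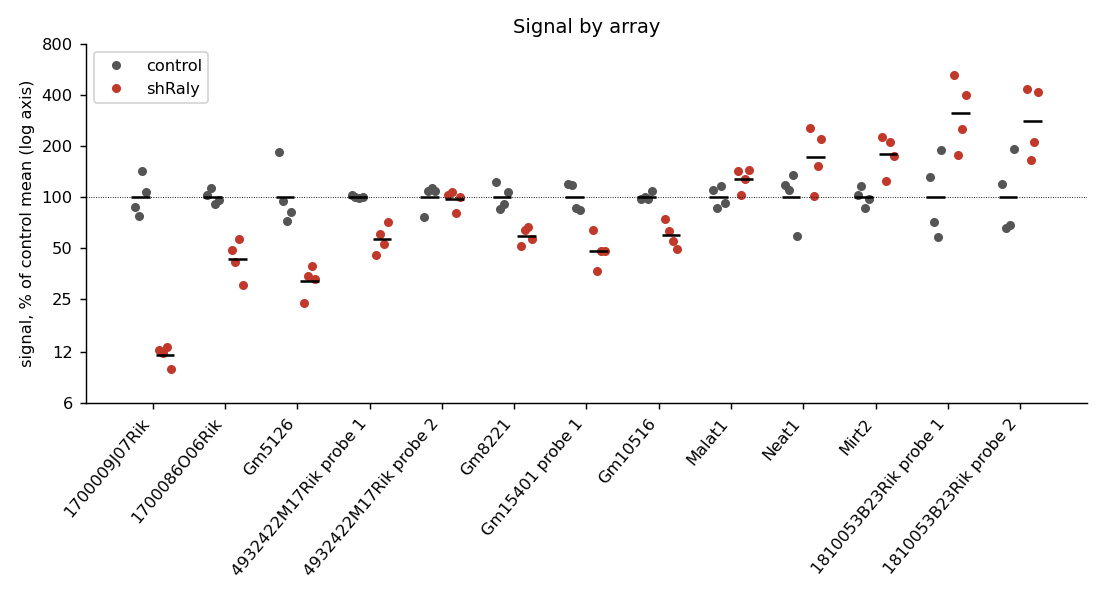
Signal of each array as a percent of the control mean (log axis) for 13 non-coding probes, with controls in grey, shRaly in red and the geometric mean of each group as a bar. 1700009J07Rik lies at 9.52% to 12.9% in shRaly, the 2 probes of 4932422M17Rik separate, and both probes of 1810053B23Rik overlap between groups.

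Just short of the threshold stood a few transcripts that were well above background on all 8 arrays. Gm10516, which overlaps Rcor3 in RefSeq, was at 96.3%, 99.6%, 96.9% and 108% of the control mean in control 1 to 4 and at 74.3%, 62.9%, 54.7% and 49.0% in shRaly 1 to 4, with a log2 fold change of -0.75 (SE 0.14, adjusted p 0.0513 in limma). 2 more were picked after their values were seen. Gm15401 probe 1 was at 119%, 118%, 85.5% and 83.0% in the controls and at 63.5%, 36.5%, 48.0% and 47.5% in shRaly (log2 fold change -1.06, SE 0.19, adjusted p 0.053). Gm8221, a pseudogene between Apol10b and Apol11b, was at 122%, 84.7%, 90.7% and 106% in the controls and at 51.1%, 63.7%, 65.8% and 56.3% in shRaly (-0.76, SE 0.14, adjusted p 0.0554). In all 3 the groups did not overlap. Adjusted p values for Gm10516, Gm15401 and Gm8221 were 0.0426, 0.0478 and 0.0449 under quantile scaling, but 0.0661, 0.07 and 0.0509 when scaled on the probes detected on all arrays, and 0.175, 0.164 and 0.187 without the filter on dim probes. In limma with an intensity trend they were 0.0304, 0.0307 and 0.0242. When only probes detected on all 8 arrays were fitted, they were 0.0451, 0.047 and 0.0498. Median scaling gave 0.0299, 0.0291 and 0.0772, and normexp gave 0.0605, 0.0601 and 0.0132. With the replicate number as a block the adjusted p values were 0.151, 0.122 and 0.187. Of the 8 fits that left out an array, that without shRaly 1 passed for Gm10516 (0.0294) and Gm15401 (0.0387), and none passed for Gm8221. The second probe of Gm15401 was never well above background. Of the coding genes that flank Gm15401 in RefSeq, Tgoln1, which encodes a trans-Golgi network protein, fell, with a log2 fold change of -1.13 (SE 0.12, adjusted p 0.013), and it was the 1 gene past the threshold among 95 tested coding neighbours of the transcripts examined, beside 0.698% of all probes tested. Gm15401 itself did not pass.

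No non-coding probe passed the test upwards, and the highest-ranked ones are given as values. Mirt2, a long non-coding RNA induced in inflammation, was at 103%, 116%, 86.3% and 96.8% of the control mean in control 1 to 4 and at 226%, 124%, 211% and 173% in shRaly 1 to 4. Every shRaly array lay above every control array, shRaly 2 by least, and the log2 fold change was 0.84 (SE 0.19, adjusted p 0.0973 in limma). Without shRaly 2 it was 1.02 with an adjusted p of 0.0318, while the other 7 fits that left out an array did not pass, with adjusted p values of 0.121 to 0.251. The dim probes of 1700025K24Rik (1.70, SE 0.38, adjusted p 0.0901), 2700099C18Rik (1.07, SE 0.24, adjusted p 0.092) and 4930480G23Rik (0.91, SE 0.19, adjusted p 0.0709) were each well above background on 3 of the 4 shRaly arrays and on 1, 1 and 2 of the control arrays. The groups did not overlap in any of these. 1700025K24Rik and 2700099C18Rik only just met the filter's minimum of 4 arrays, mainly through shRaly, the group where they were high. Their tests were thus more open to a rise than to a fall. Under normexp the log2 fold changes of 1700025K24Rik, 2700099C18Rik and 4930480G23Rik were smaller, and none passed.

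1810053B23Rik, chosen after its values were seen, had the largest log2 fold changes among the 536 non-coding probes detected on all 8 arrays. Its 2 probes abut on mm9, at chr16:93347134-93347193 and chr16:93347074-93347133, minus strand. Probe 1 was at 131%, 70.5%, 57.6% and 189% of the control mean in control 1 to 4 and at 522%, 177%, 253% and 398% in shRaly 1 to 4. Probe 2 was at 119%, 65.0%, 67.9% and 191% in the controls and at 436%, 165%, 211% and 417% in shRaly. The array order was nearly the same in both probes, and control 4 lay above shRaly 2 in each, so the groups overlapped. The log2 fold changes were 1.64 (SE 0.44, adjusted p 0.149 in limma) and 1.50 (SE 0.43, adjusted p 0.164), wide enough that neither passed. By RefSeq order this transcript lies between Runx1, not tested, and Setd4, with 0.56 (SE 0.13, adjusted p 0.102).

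In the list of nuclear and architectural RNAs, which also holds the cytoplasmic Norad, 18 probes of 10 genes were tested. Limma called 0 in either direction, and 4 had an unadjusted p under 0.05, among them the third Norad probe. The median log2 fold change was 0.11, with the 4 Norad probes included. Of all probes tested on the array 0.698% were called and 14.4% had an unadjusted p under 0.05, with a median of -0.03. The counts of this list and of those that follow are to be read beside these values. At that share of calls, 0 calls in so short a list says little. Neat1, the scaffold of nuclear paraspeckles, was at 117%, 109%, 134% and 58.9% of the control mean in control 1 to 4 and at 254%, 101%, 151% and 219% in shRaly 1 to 4. The groups overlapped through shRaly 2, and the log2 fold change of 0.77 (SE 0.34, 95% interval 0.01 to 1.53, adjusted p 0.339) did not pass. Malat1, abundant in nuclear speckles, was at 110%, 85.7%, 115% and 92.2% in the controls and at 142%, 102%, 128% and 144% in shRaly (0.35, SE 0.15, adjusted p 0.319). shRaly 2 was the lowest of the shRaly arrays for Neat1, Malat1, Mirt2 and both 1810053B23Rik probes, and it was also the array with the highest Raly signal of its group and the lowest share of detected spots. The part of those array differences in these values was not tested. Probes that fell had no common order. On shRaly 2, Gm15401 probe 1 (36.5%) and Tug1 probe 2 (72.7%) fell furthest, while Gm15421 (90.0%) and Snhg18 (75.9%) fell least. The 4 called probes lay between the other shRaly arrays there. Norad, a cytoplasmic RNA that binds Pumilio proteins, had 4 probes with log2 fold changes of 0.15, 0.14, 0.36 and 0.27, all above 0. The third was at 94.1%, 99.7%, 107% and 99.2% in the controls and at 123%, 119%, 132% and 138% in shRaly (SE 0.09, adjusted p 0.137).

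Small nucleolar RNA hosts were detected on every array. All 16 probes of 13 genes were tested, and 0 were called by limma in either direction, beside 0.698% of all probes tested. An unadjusted p under 0.05 was seen for 3 (beside 14.4% of all probes tested), and the median log2 fold change was -0.03. Snhg3 was at 87.4%, 83.4%, 86.3% and 159% of the control mean in control 1 to 4 and at 164%, 107%, 165% and 167% in shRaly 1 to 4. In each group 1 array stood apart, control 4 and shRaly 2, and the groups overlapped (0.57, SE 0.24, adjusted p 0.32). Snhg18 was at 99.9%, 102%, 127% and 77.6% in the controls and at 74.6%, 75.9%, 67.0% and 65.8% in shRaly, without overlap (-0.50, SE 0.15, adjusted p 0.176). Gas5, which hosts box C/D small nucleolar RNAs, had 3 probes at 0.15, -0.18 and 0.02. Snhg1 (-0.02, 95% interval -0.38 to 0.33) and Dancr (-0.14, 95% interval -0.50 to 0.22) had intervals that include differences of either sign.

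The short lists of imprinted and growth-related transcripts held no call either, beside 0.698% of all probes tested. Of the imprinted non-coding RNAs 8 probes of 6 genes were tested, with 0 called by limma, 1 at an unadjusted p under 0.05 and a median of -0.05. H19, high in fetal liver and low in the adult, had 1 tested probe, dim, at 80.3%, 48.9%, 271% and 93.9% of the control mean in control 1 to 4 and at 135%, 146%, 132% and 128% in shRaly 1 to 4 (0.43, SE 0.44, adjusted p 0.704). Control 3 lay above every other array, and the second H19 probe was never well above background. Meg3, a maternally expressed tumour suppressor RNA, had tested probes at 0.31 and -0.15, neither past the threshold. Mirg, from the same imprinted domain, was at 0.53 (SE 0.21, adjusted p 0.295). In the list of growth and stress related transcripts 13 probes of 7 genes were tested, with 0 called by limma, 1 at an unadjusted p under 0.05 and a median of -0.15. The 3 probes of Tug1 stood at -0.27, -0.25 and 0.21. Of these, probe 2 was at 99.0%, 99.5%, 105% and 96.4% in the controls and at 87.6%, 72.7%, 88.7% and 88.7% in shRaly, without overlap (SE 0.10, adjusted p 0.297), while probe 3 lay on the other side of 0.

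The RNA components of ribonucleoproteins had 5 tested probes of 5 genes, of which limma called 0, beside 0.698% of all probes tested. None had an unadjusted p under 0.05, and the median was 0.03. Rmrp, the RNA of the mitochondrial RNA processing ribonuclease, was at 79.9%, 117%, 102% and 105% of the control mean in control 1 to 4 and at 89.5%, 82.2%, 84.2% and 78.0% in shRaly 1 to 4 (-0.26, SE 0.13, adjusted p 0.395). The groups overlapped through control 1. The telomerase RNA Terc was well above background on 1 control and 1 shRaly array and was not tested. Of the 7 probes in the microRNA host class 3 were tested, and none had an unadjusted p under 0.05. A wider list of 16 names, which also holds Mirt2, had 7 tested probes of 6 genes, with 0 calls by limma, 1 unadjusted p under 0.05 (Mirt2) and a median of -0.02. Mir22hg (-0.18) and Mir17hg (-0.16), which carry microRNAs in their transcripts, did not pass.

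Where a non-coding probe shared sequence with a coding gene's probe, the values of the pair ran together. Of the 1911 probes, 53 had a stretch of at least 20 bases also present in an mRNA probe, 33 of them pseudogenes, and in 34 pairs both probes were tested. The log2 fold changes had the same sign in 30 of the 34 pairs, with r 0.73 and rho 0.75 across pairs, which share the same 8 arrays and in part the same bases and are not independent. Gm15421 was at 83.8%, 104%, 110% and 104% of the control mean in control 1 to 4 and at 59.0%, 90.0%, 86.0% and 65.1% in shRaly 1 to 4 (-0.44, SE 0.16), beside -0.46 (SE 0.17) for Rpl22l1. Gm9706 was at 82.2%, 97.3%, 127% and 98.5% in the controls and at 157%, 107%, 148% and 177% in shRaly (0.54, SE 0.18), beside 0.51 (SE 0.17) for Isg15. The groups overlapped in both, and neither member of either pair passed the test. Gm5523 (0.03, SE 0.10) and Gm12070 (-0.08, SE 0.10) stood beside 0.02 (SE 0.10) for Gapdh. 2700099C18Rik, at 1.07 (SE 0.24) beside 0.16 (SE 0.31) for Ndc80, with 25 shared bases, was the pair farthest apart. A probe with such a stretch may bind the RNA of either gene, which was not tested, and no value here separates the 2 sources.

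Antisense partners and other transcripts of the same gene are given for comparison; the difference from the pairs with shared sequence was not tested. For 17 opposite-strand probes of 16 transcripts the gene named in the transcript's symbol was also tested. The 2 values had the same sign in 8 of 17 pairs, with r -0.51 and rho -0.49. Stk35os1 was at -0.30 (SE 0.10) and Stk35, a kinase gene, at 0.35 (SE 0.15), while Hnf4aos was at 0.02 (SE 0.21) and Hnf4a, a master regulator of hepatocyte genes, at 0.03 (SE 0.09). None of these passed the threshold. For 17 non-coding probes of 16 coding genes, the sign matched that of an mRNA probe of the same gene in 9 pairs (r 0.09, rho -0.01). Sp3os and Prmt6 each entered more than once beside the same mRNA probe, and all pairs share the same 8 arrays. These pairs are thus not independent either. Prmt6, an arginine methyltransferase, had non-coding probes at -0.54 (SE 0.26) and -0.26 (SE 0.08) and an mRNA probe at -0.52 (SE 0.11, adjusted p 0.0862 in limma). Among the 57 gene names with at least 2 tested non-coding probes, the probes had the same sign in 33, and their log2 fold changes spread over more than 0.5 in 3.

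**Figure D4:**
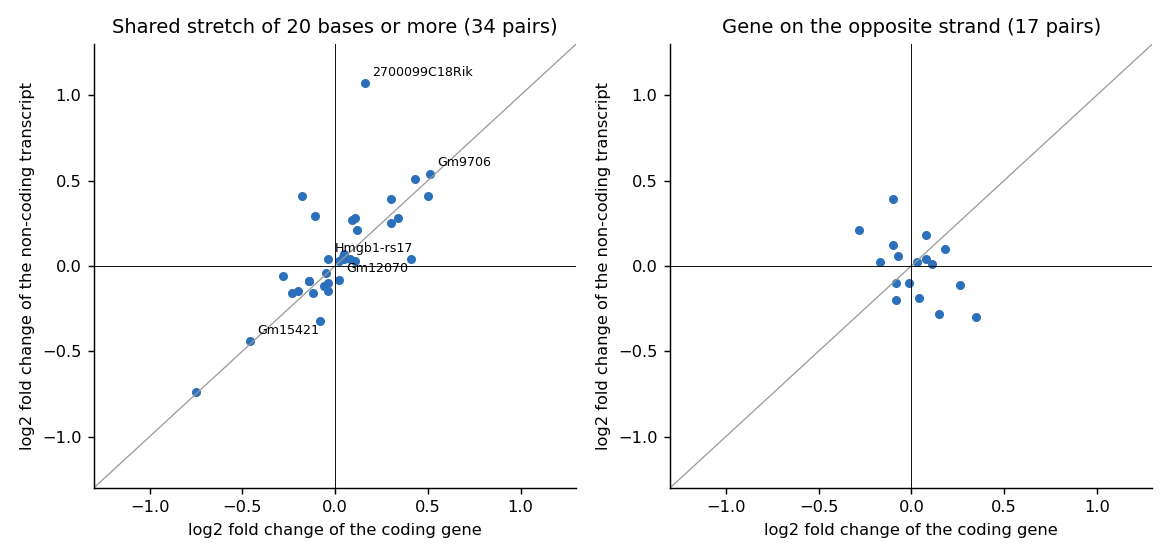
Log2 fold change (shRaly minus control) of the non-coding probe against that of the coding gene, with the line of equality. Left, 34 pairs of probes with at least 20 bases in common. Right, 17 probes of 16 opposite-strand transcripts and the gene they are named after. Same signs were seen in 30 of 34 pairs on the left and in 8 of 17 on the right.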

How the data were processed

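Signal intensity was that of Agilent Feature Extraction, version 11.5.1.11 per the submitters' processing notes and 11.5.1.1 per the file headers. The deposited processed signal intensity was background-subtracted and not normalised between arrays, per the file headers. The series table that the authors deposited held the same values for 62976 of 62976 spots on every array (within a relative 1e-05) and served as an alternative that keeps outlier spots. From the processed signal log2 values were computed, each array's 75th percentile over non-control spots (7.86 to 8.19) was subtracted, 137 to 163 outlier spots per array were left out, and spots of a probe were averaged. Names came from the RefSeq gene table of assembly GRCm38.p6: 1368 of the non-coding probes by accession, 271 by symbol, 28 by an older symbol, and 244 kept the file's name. Coordinates are those of the files (mm9); exon, intron and UTR annotation was not used here.

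Probes well above background on at least 4 of 8 arrays, with values on at least 3 arrays of each group, were fitted together with limma 3.58.1 in R 4.3.3 (lmFit, eBayes), with Benjamini-Hochberg adjustment over all of them and a threshold of 0.05. The fit was tested on simulated data with 26887 probes, where it recovered 26% of probes changed 1.5-fold, 56% at 2-fold, 96% at 4-fold and 98% at 8-fold, with 4.83% false calls. A fold against a group in which no array detected the probe is a bound. Arrays count no molecules, so precision is limited by their number. Alternatives were other background corrections, scalings, filters, a replicate block, an intensity trend and leaving out each array.

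Named were the 10 brightest non-coding probes, those past the threshold without overlap of the groups, the next by p up to 5 per direction, 12 transcripts whatever their values, and the leading one of each of 6 lists; transcripts outside these rules, among them Xist, Mexis and those compared with a coding gene, were chosen after their values were seen. Of the 12 transcripts, Rpph1 had no probe in the non-coding set. The non-coding probes and the lists were chosen with earlier results of these data known.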

Additional observations from a re-analysis of the deposited data

Results flagged for a closer look

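Among the groups of 4 arrays looked at for a single distant array, 78 in all, 7 had an array whose gap to the nearest other was too large a part of the group's range by Dixon's criterion, and chance gives about 1 in 20. The share of mRNA probes well above background was 61.4% on shRaly 2 against 65.5% to 65.8% on the other shRaly arrays. Dancr was at 111% of the control mean in control 1, against 95.9% to 96.8% in the other controls. Gas5 probe 1 was at 123% in shRaly 2, against 106% to 108%, and Gas5 probe 3 at 117% in control 3, against 93.6% to 97.1%. Snhg3 was at 159% in control 4, against 83.4% to 87.4%, and at 107% in shRaly 2, against 164% to 167%. Tug1 probe 2 was at 72.7% in shRaly 2, against 87.6% to 88.7%. The array was shRaly 2 in 4 of the 7.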

How the results depend on the processing

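The count of non-coding probes lower in shRaly, 4, was 7 under quantile scaling, 1 without the filter on dim probes and 1 with the replicate number as a block, where 1 was higher (1810053B23Rik probe 2, adjusted p 0.0419) in place of 0; the cause was not tested. Same-numbered control and shRaly arrays did not deviate together (correlations 0.05, -0.04, -0.08 and 0.14, with 1 of 4 best with its own number), so the numbers were not taken as pairs. Under the other scalings, filters and fits that used all arrays the count was 3 to 6. Leaving out 1 array gave 1 to 6 lower and 0 to 1 higher, the 1 higher being Mirt2 without shRaly 2. Normexp also called 4, but only 2 of them were the same probes. Over all probes the 188 calls became 50 with the block, 26 with no filter, 264 under quantile scaling, 322 with an intensity trend, and 16 (without shRaly 4) to 255 (without shRaly 2) with an array left out. The median log2 fold change of the non-coding probes, -0.06, was 0.02 under normexp and 0.10 with no filter, where the mRNA median was 0.05, and -0.08 to -0.04 with an array left out. The detected share, 34.2%, was 53.7% when probes significantly above background counted, and 33.9% to 34.8% with an array left out. For 73 named probes 1285 alternative values were computed. Of these, 1235 kept their side of the threshold, 32 lost the call, 18 gained one and 0 were counted as reversed. Only 4 of the 73 probes were called to begin with. The count of reversals leaves out values short of the threshold, which could change sign. Meg3 probe 2, for example, went from -0.15 to 0.13 under normexp. Probes near background limit what can be said of 3 of the 4 calls, and fold changes of 1.5 were recovered in 26% of simulated cases.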
